A study of Mus musculus with 4 samples.

Results

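The comparison described here set 1 array of CT26 cells treated with 5 µM Senexin B for 24 h against 1 array of CT26 cells treated with DMSO, the solvent, for 24 h. These are 2 of the 4 arrays of the study, and the values are log2 levels from the Affymetrix Mouse Gene 2.0 ST array, which reads each gene with 1 or more probe sets along its transcript. CT26 is a cultured line from a mouse colon carcinoma, and all arrays hold RNA of that line. The other arrays held CT26-pLKO.1, which carries the pLKO.1 vector, and CT26-shCDK8, and the labels give neither of them a solvent or an inhibitor. All genes read by a probe set with a single gene symbol were taken, 22180 genes in all. Of these, 14272 reached an expression limit of 5.98 (the 40th percentile of all gene values) on at least 1 of the 4 arrays and are called expressed below. Each group had 1 array, so no difference could be tested, no error could be attached to any value, and the words higher and lower below describe these arrays only.

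CDK8 and its paralogue CDK19 are the kinases that the small molecule Senexin B inhibits. Either kinase joins cyclin C, MED12 and MED13 in the kinase module of Mediator, the complex that carries signals from DNA-bound transcription factors to RNA polymerase II. The module binds Mediator reversibly and is known mainly for its part in signal-driven transcription, such as that by STAT, SMAD, NF-kappaB and beta-catenin factors, where it can act as an activator or as a repressor. CDK8 is known as an oncogene in colon cancer, and the title of the series links it to liver metastasis and to the matrix metalloproteinases, enzymes that cut the extracellular matrix.

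With Senexin B, chemokines, the aldehyde dehydrogenase gene Aldh3a1, matrix proteoglycans, collagen VI chains, acute-phase proteins and growth factor receptors were among the higher genes, and the selectins, stromelysin 2 and collagenase 3 genes, EGF-family ligands and the progesterone-inactivating enzyme gene Akr1c18 were among the lower ones. Senexin B lay at or past 2-fold above DMSO in 98 expressed genes (0.687%) and at or past 2-fold below it in 36 (0.252%). Between the control arrays, pLKO.1 minus DMSO, that held for 12 genes (0.0841%) above and 2 (0.014%) below. Set against pLKO.1 in place of DMSO, Senexin B was past 2-fold above in 101 genes (0.708%) and below in 43 (0.301%). Each of these comparisons shares an array with another, so their counts are not independent. The control arrays are not replicates either, since the pLKO.1 line differs from the DMSO culture by its vector and its history.

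Higher genes outnumbered lower ones at each fold counted. At 1.5-fold, 336 expressed genes were higher and 235 lower, at 3-fold 26 and 7, and at 4-fold 14 and 5. Over all expressed genes 44.8% lay above 0 and the median difference was -0.03, with an SD over genes of 0.29 beside 0.19 between the controls. The 2-fold genes came from all levels. With the expressed genes split into 3 groups of equal size by mean level, the low group held 25 higher and 11 lower genes, the middle group 45 and 18, and the high group 28 and 7. The median difference was 0.07 in the low group, -0.05 in the middle group and -0.08 in the high group. A list median below is therefore to be read beside the level of its genes. In the high group the controls had none at 2-fold in either direction, and the SD over genes was 0.26 for Senexin B and 0.14 for the controls. The olfactory receptors, genes of the nose that served as probes near background, gave a further measure of the spread. Over all 1089 of them the SD was 0.31 for Senexin B and 0.31 for the controls. At least 2-fold apart were 6 higher and 2 lower genes with Senexin B, and 3 and 2 between the controls. None of the 92 that reached the limit was 2-fold apart in either comparison. The vomeronasal receptors, another such family, had 16 of 285 genes that reached the limit. Of these 16, Vmn2r33 alone was at least 2-fold higher with Senexin B, and none was 2-fold apart between the controls.

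**Figure D1:**
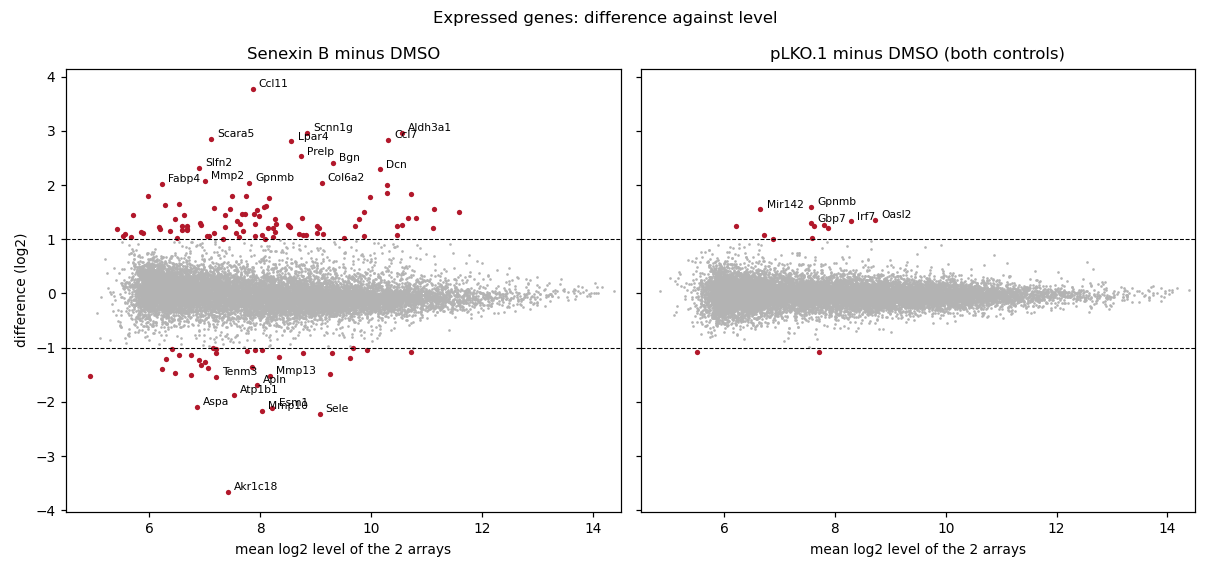
Difference between arrays (log2, vertical axis) against the mean level of the same arrays (log2, horizontal axis) for 14272 expressed genes, Senexin B minus DMSO on the left and the controls, pLKO.1 minus DMSO, on the right; each point is a gene, dashed lines mark 2-fold and red points lie at or past it. The left panel has 98 red points above and 36 below, led by Ccl11 at 3.78 and Akr1c18 at -3.66, and the right panel has 12 and 2.

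At the edge of the 2-fold rule, the higher genes just inside it were Gm3285 (1.02), Glis3 (1.01) and Gpr137b (1.01), and those just outside were Cask (0.99), Flrt2 (0.98) and Prxl2a (0.97). Among the lower genes, Efnb2 (-1.01), 2700038G22Rik (-1.01) and Snora20 (-1.02) lay just inside, and Ankrd1 (-0.9999), Dusp5 (-0.99) and S100a7a (-0.97) just outside. Of the 98 higher genes, 21 read less than the limit with DMSO, and 87 were still at least 2-fold higher after values under the limit had been raised to it. Of the 36 lower genes, 8 lay under the limit on the Senexin B array and 32 passed in the same way. All 36 lower genes were also lower against pLKO.1, 21 of them at least 2-fold. Of the 98 higher genes 96 were also higher against pLKO.1, 69 of them at least 2-fold. The exceptions in sign were Irf7 and Phf11d, and they are described with the interferon genes. In shCDK8 minus pLKO.1, which uses neither array of this comparison, 2 of the 98 higher genes passed 2-fold in the same direction and 8 in the other one, beside 0.196% of all expressed genes above 2-fold there and 0.322% below it. Of the 36 lower genes 5 passed in the same direction and 1 in the other.

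The transcripts of the inhibitor's targets were near their DMSO levels. Cdk8 read 10.69 with DMSO, 10.58 with Senexin B and 10.79 in pLKO.1. Cdk19 read 8.20, 8.36 and 8.17 on the same arrays. The other measured genes of the kinase module, Ccnc (cyclin C), Med12, Med12l, Med13 and Med13l, differed between Senexin B and DMSO by -0.20 to 0.08, and the median over the 7 genes was -0.09. An inhibitor of kinase activity need not alter the transcript of the kinase, so these values do not check the treatment. Of 11 RNA polymerase II subunit genes Polr2l, a small subunit shared by all nuclear RNA polymerases, was lower (6.92 with DMSO, 5.52 with Senexin B and 6.91 in pLKO.1). Its Senexin B value lay under the limit, and with that value raised to it the difference was -0.94.

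The label of a colon carcinoma line was read against defining markers. Of 8 epithelial markers 5 reached the limit on the DMSO array: Krt20 (8.72), Krt8 (7.12), Cdx2 (6.57), Cdh1 (6.54) and Krt18 (6.53). Epcam, Krt19 and Vil1, which colon epithelium normally expresses, lay under it on all 4 arrays. All 5 mesenchymal markers reached it, with the intermediate filament gene Vim at 13.94 and fibronectin (Fn1) at 12.26 on the DMSO array. With Senexin B the epithelial markers differed from DMSO by -0.15 to 0.22, and the mesenchymal ones by -0.15 to 0.47. None of the macrophage markers (Ptprc, Adgre1, Csf1r, Itgam and Tyrobp) reached the limit on any array, nor did the 3 lymphocyte markers measured. The summed linear level of the 5 macrophage markers was 203 with DMSO and 201 with Senexin B, and that of the lymphocyte markers was 119 and 112. The sum over 5 endothelial markers was 319 and 342, and over 3 hepatocyte markers 222 and 242.

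Fibroblast markers stood higher with Senexin B. Over 7 of them (Pdgfra, Dcn, Lum, Col1a1, Col1a2, Col3a1 and Fap) the summed linear level was 4535 with DMSO, 8193 with Senexin B and 5030 in pLKO.1. The markers were uneven. Dcn and Pdgfra were more than 2-fold higher, Col3a1 was 0.57 higher, and the collagen I genes Col1a1 and Col1a2 were 0.23 and 0.21 higher. Fap, a protease of activated fibroblasts, differed by -0.46 and lay under the limit on both arrays, and Lum read 4.56 with DMSO and 5.62 with Senexin B, under it as well. On whole cultures, more cells of a kind and more RNA per cell cannot be told apart, and the part of either in the matrix genes below was not tested.

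**Figure D2:**
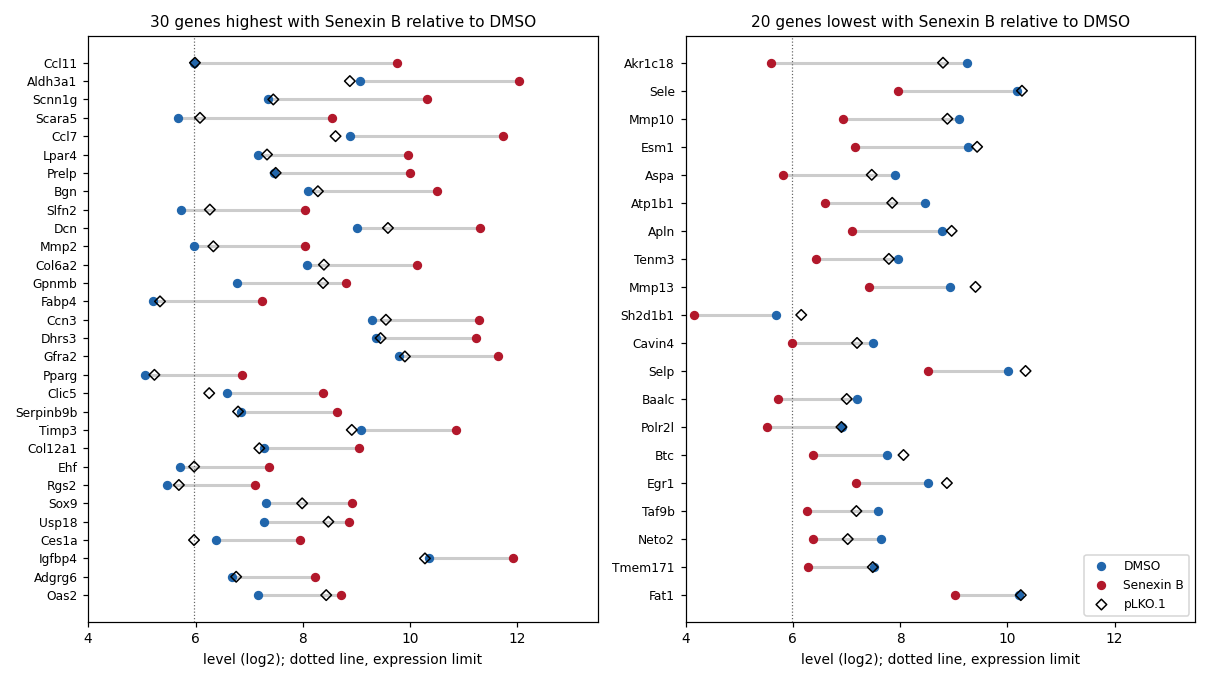
Log2 level (horizontal axis) of the 30 expressed genes highest and the 20 lowest with Senexin B relative to DMSO, in order of the difference; blue points are the DMSO array, red points the Senexin B array and open diamonds the pLKO.1 array, and the dotted line is the expression limit of 5.98. For most genes the diamond lies close to the DMSO point, as for Ccl11 (5.97 and 5.99), while for Gpnmb, Usp18 and Oas2 it lies nearer the Senexin B point.

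Among secreted signals, the CC chemokines held the gene with the largest difference. Ccl11 encodes eotaxin, which attracts eosinophils. It read 5.97 with DMSO, 5.99 in pLKO.1 and 5.63 in shCDK8, all at or near the expression limit, and 9.75 with Senexin B. The difference from DMSO was 3.78, and 3.77 with the DMSO value raised to the limit. Ccl7, a monocyte attractant, read 8.88 with DMSO, 8.61 in pLKO.1, 8.64 in shCDK8 and 11.73 with Senexin B. For both genes the Senexin B array stood alone and the other 3 lay close together. Ccl2, the main monocyte chemokine, read 10.96 with DMSO, 10.52 in pLKO.1 and 11.88 with Senexin B, a difference of 0.92 that stayed under 2-fold against DMSO. The other 9 expressed CC chemokines lay between -0.46 (Ccl5, an attractant of T cells) and 0.29 (Ccl28). Ccl17, Ccl3, Ccl4, Ccl9, Ccl20, Ccl25 and Ccl27a lay between these. The median over the 12 was -0.02, and over the alternative settings it ran from -0.07 to 0.92, the last with the limit at the 60th percentile. Ccl2, Ccl7 and Ccl11 are neighbours. In RefSeq order the genes run Ccl2, Ccl7, Ccl11, Ccl12, Ccl8 and Ccl1, and the last 3, chosen after their values were seen, lay under the expression limit on every array, with differences of 0.27, 0.60 and 0.47. Of 11 expressed CXC and CX3C chemokines none was 2-fold apart, and the largest differences were those of the neutrophil attractant Cxcl2 (0.51) and of Cxcl11 (0.48).

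Acute-phase proteins, which the liver and inflamed epithelia secrete, were represented by 6 expressed genes with a median of 1.12, all 6 above 0 and 4 at least 2-fold higher. The median of these 6 was -0.17 between the controls. Cp encodes ceruloplasmin, a copper-carrying ferroxidase, and read 10.10 with DMSO, 11.50 with Senexin B and 9.79 in pLKO.1. Lcn2 encodes lipocalin 2, which binds bacterial iron carriers, and read 10.51, 11.73 and 10.39. Saa3, a serum amyloid A protein, read 6.01, 7.18 and 5.88, and Hp, the haemoglobin-binding haptoglobin, read 6.50, 7.57 and 6.28. In all 4 genes pLKO.1 lay below DMSO and Senexin B above. The other expressed members were Orm1 (0.36) and Orm2 (0.08). Of the 15 measured genes of this list 9 never reached the limit, and with no limit the median was 0.20. Over 25 expressed cytokine receptors the median was 0.07 and none was 2-fold apart. They ran from Il13ra1, a chain of the interleukin 13 receptor, at -0.76 to Osmr, the oncostatin M receptor, at 0.95.

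Other ligands were apart singly. Grem1, a secreted BMP antagonist chosen after its values were seen, read 10.83 with DMSO, 12.33 with Senexin B and 11.40 in pLKO.1, and Bmp2 read 9.93, 11.01 and 10.28, so a ligand and an antagonist of the same pathway were both more than 2-fold above DMSO and both under 2-fold against pLKO.1 (0.93 and 0.73). Igfbp4, which binds insulin-like growth factors, read 10.36, 11.92 and 10.28, and 9 of the 10 expressed genes of the IGF list were above 0 with a median of 0.19. Of 13 expressed fibroblast growth factors 10 were above 0, led by Fgf10 (0.86) and Fgf7 (0.57), both ligands that mesenchyme sends to epithelium, with none 2-fold apart. The median level with DMSO was low in both lists, 6.17 for IGF and 6.49 for the fibroblast growth factors. With the trend of the difference on level removed, their median differences were 0.12 and 0.08. Il16, a T cell attractant, was 1.16 higher and Sema3f, a repulsive guidance cue, 1.24 higher. Genes of angiogenesis went both ways. Vegfa (0.86), Vegfd (0.78) and Pdgfc (0.72) were above DMSO by more than 1.5-fold. Esm1, a secreted proteoglycan of endothelium and tumours, read 9.27 with DMSO, 7.17 with Senexin B and 9.44 in pLKO.1, and Apln, the peptide ligand apelin, read 8.78, 7.10 and 8.96. The 10 expressed genes of that list had a median of 0.04.

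The EGF family, whose members activate the EGF receptor and its relatives, lay on the lower side in 6 of 8 expressed genes, and their median was -0.25, against -0.03 between the controls. Btc (betacellulin) read 7.75 with DMSO, 6.37 with Senexin B and 8.06 in pLKO.1. Tgfa read 8.29, 7.23 and 7.81, and Hbegf, the heparin-binding member, read 10.10, 9.13 and 10.28, a difference of -0.97. For Tgfa the pLKO.1 value lay between the others, and against it the difference was -0.58. The members above 0 were Ereg (epiregulin, 0.44) and Nrg1 (neuregulin 1, 0.37), so the family did not lie on a single side of DMSO. Over the alternative settings the median ran from -0.97, when the limit was raised to the 60th percentile, to -0.11 against pLKO.1.

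Transcripts that ERK signalling downstream of such receptors is known to raise were mixed. Egr1, a zinc finger factor made within minutes of growth factor stimulation, read 8.53 with DMSO, 7.18 with Senexin B and 8.87 in pLKO.1. Among 21 expressed feedback inhibitors of the pathway 6 were above 0 and the median was -0.14. The ERK phosphatase Dusp5 was at -0.99 and Spry2, an inhibitor inside the cell of signalling from such receptors, at -0.59. Dusp1, a phosphatase that acts on JNK and p38 as well, was 0.84 higher. Among 24 expressed immediate-early factors Srf (-0.57) and Ier2 (-0.59) were lower, while Klf4, a factor of the differentiated gut, read 7.53 with DMSO, 8.74 with Senexin B and 7.30 in pLKO.1, and Egr2 was 0.90 higher. The median of the 24 was -0.06.

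Targets of YAP and TAZ, the coactivators that report cell shape and density, lay above 0 in 3 of 18 genes, where 44.8% of all expressed genes did, and none was 2-fold apart. Their median was -0.22, beside 0.10 between the controls, and stayed between -0.29 and -0.18 under all alternative settings. Ankrd1 read 11.26 with DMSO, 10.26 with Senexin B and 11.35 in pLKO.1, and Crim1 was at -0.82. Foxf2 was the highest at 0.61. Caveolae, the membrane pits that flatten under stretch, are built by caveolins and cavins, and 6 of these 7 genes were below 0. Their median was -0.45, against -0.06 between the controls. Cavin4, the muscle member, read 7.50 with DMSO, 5.99 with Senexin B and 7.20 in pLKO.1. Cavin3 (-0.68), Cavin2 (-0.58) and Cav2 (-0.45) were lower too, whereas Cav1 (-0.03) and Cavin1 (0.05), the structural core of the pit and chosen after their values were seen, lay near 0.

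Several receptors stood higher. Lpar4, a receptor for lysophosphatidic acid, read 7.16 with DMSO, 9.97 with Senexin B and 7.33 in pLKO.1, and the other 5 expressed lysophospholipid receptors were at 0.47 or less. Pdgfrb and Pdgfra, the receptors of the platelet-derived growth factors, read 9.12 and 9.09 with DMSO, 10.62 and 10.33 with Senexin B, and 9.30 and 9.23 in pLKO.1. Fgfr1 was 0.88 higher, while Mertk, which recognises dying cells, was at -0.87 and Met, the receptor of hepatocyte growth factor, at -0.53. The 26 expressed receptor tyrosine kinases had a median of 0.06, and the sign of that median turned with the limit at the 60th percentile (-0.06). Gfra2, the neurturin receptor, read 9.80 with DMSO, 11.64 with Senexin B and 9.90 in pLKO.1. Adgrg6, an adhesion G protein-coupled receptor of Schwann cells, read 6.67, 8.23 and 6.76, and the death receptor Fas read 7.92, 9.15 and 7.44. Scara5, a ferritin receptor, read 5.68 with DMSO, under the limit, 8.54 with Senexin B and 6.08 in pLKO.1, and the difference was 2.56 with the DMSO value raised to the limit. In shCDK8 minus pLKO.1, which uses no array of this comparison, Lpar4 was at -1.17, Pdgfrb at -1.25, Gfra2 at -1.79, Adgrg6 at -1.14, Fas at 0.33 and Pdgfra at 0.39.

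Small leucine-rich proteoglycans coat collagen fibrils and bind growth factors. Of 8 expressed members 3 were more than 4-fold higher and the other 5 lay between -0.15 (Podn) and 0.38 (Omd), with Ogn at -0.01, Chad at 0.19 and Fmod at 0.36. Decorin (Dcn) read 9.01 with DMSO, 11.30 with Senexin B and 9.59 in pLKO.1. Prelp read 7.46, 9.99 and 7.49, and biglycan (Bgn) read 8.10, 10.51 and 8.28. Prelp and Bgn each have a dimmer probe set that gave another value, -0.26 for Prelp and 0.69 for Bgn. With the probe sets of a gene averaged, Prelp was 1.13 higher and Bgn 1.55 higher, so the size of these differences rests on the choice of probe set and, for Prelp, so does the direction between its probe sets. Dcn has a single one.

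Collagen VI forms beaded filaments around cells, and the genes of its 3 classical chains were all at least 2-fold higher. Col6a1 read 9.96 with DMSO, 11.36 with Senexin B and 10.13 in pLKO.1, Col6a2 read 8.08, 10.13 and 8.39, and Col6a3 read 5.90, 7.36 and 6.23. The DMSO value of Col6a3 lay under the expression limit. A dimmer probe set of Col6a1 was 0.88 higher. Col6a1 and Col6a2 are adjacent in RefSeq order. The fibril-associated Col12a1 read 7.28, 9.04 and 7.19. Of 37 expressed collagen chains these 4 were at least 2-fold higher, none was 2-fold lower, 26 were above 0 and the median was 0.19 beside 0.01 between the controls. Col3a1, a fibrillar chain, was at 0.57. Of 13 expressed matricellular proteins, which modulate cell contacts with the matrix, Ccn3 read 9.29 with DMSO, 11.29 with Senexin B and 9.55 in pLKO.1. The thrombospondins Thbs1 and Thbs2 were 0.74 and 0.75 higher and tenascin C (Tnc) was at -0.77. Fibulin 1 (Fbln1, 0.70) and the latent TGF-beta binding protein Ltbp2 (0.82) led the elastic fibre list, in which none was 2-fold apart.

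**Figure D3:**
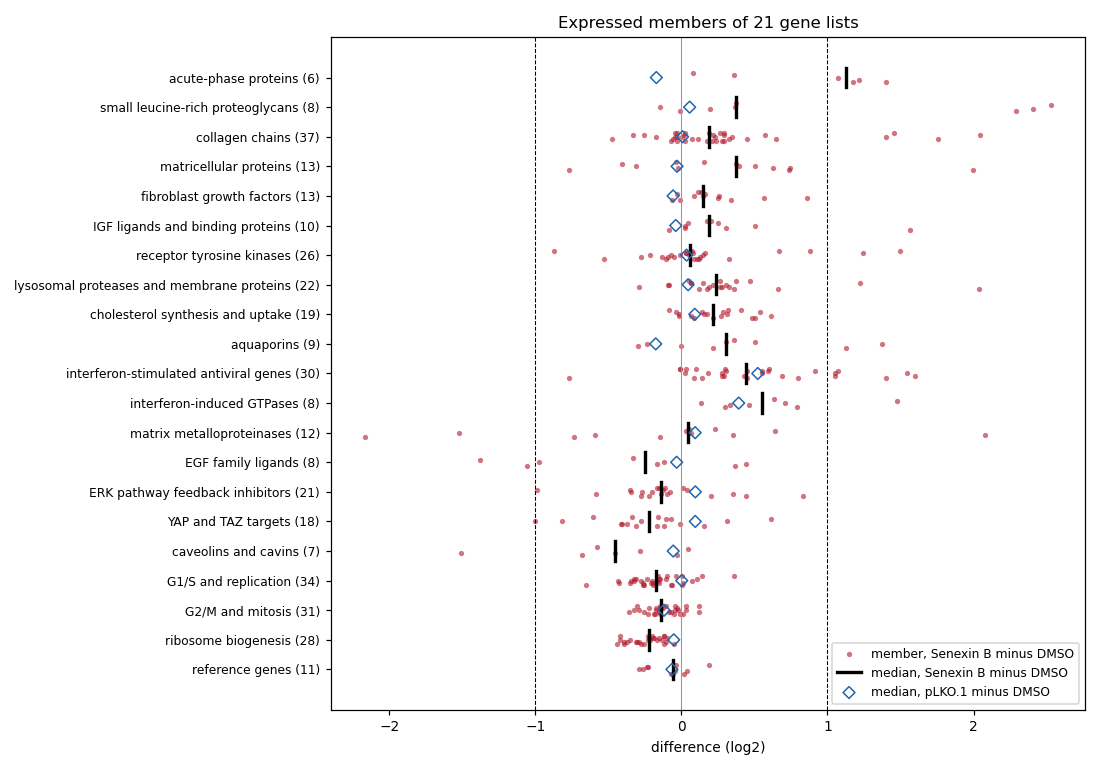
Differences (log2, horizontal axis) of the expressed members of 21 gene lists, with the number of members in brackets; red points are genes for Senexin B minus DMSO, black bars their medians, blue diamonds the medians for pLKO.1 minus DMSO, and dashed lines mark 2-fold. Acute-phase proteins (1.12) lie farthest to the right and the caveolins and cavins (-0.45) farthest to the left, while the interferon-stimulated list has a control median (0.52) beyond its own (0.44).

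Matrix metalloproteinases were apart in both directions. The genes for stromelysin 2 (Mmp10) and collagenase 3 (Mmp13), which cut proteoglycans and fibrillar collagens, were lower. Mmp10 read 9.10 with DMSO, 6.94 with Senexin B and 8.88 in pLKO.1, and Mmp13 read 8.93, 7.41 and 9.41. Mmp3, stromelysin 1, lies between them on the chromosome and read 10.53, 9.79 and 11.23, and Mmp9, gelatinase B, read 8.46, 7.88 and 8.25. Mmp2, gelatinase A, stood on the other side: it read 5.97 with DMSO, 8.05 with Senexin B and 6.33 in pLKO.1. Mmp14, the membrane enzyme that activates it, read 8.81, 9.45 and 9.30. The other expressed members, Mmp11, Mmp17, Mmp19, Mmp23, Mmp24 and Mmp28, lay between -0.15 and 0.35. In shCDK8 minus pLKO.1, Mmp13 was at -3.17, Mmp3 at -2.59, Mmp10 at -1.18, Mmp9 at -1.06, Mmp2 at -0.26 and Mmp14 at 0.48. Of the tissue inhibitors, Timp3 read 9.09, 10.86 and 8.91, and Timp1 was at -0.83.

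Promoters of the genes at least 2-fold apart were searched for 10 motifs, and the AP-1 site is described because it was found in the protease and selectin genes among the lower ones, a choice made after the values were seen. The AP-1 site, which FOS and JUN dimers bind, was searched as TGANTCA, with any base at N. The window ran from 250 bases before to 50 after a start. A match occurred in that of Mmp10, Mmp13, Sele, Selp and Sh2d1b1, 5 of the 29 lower genes with a usable promoter (17.2%). It occurred in 8 of 65 higher genes (12.3%), namely Gpnmb, Cp, Col6a1, Fas, Vmn2r33, Il16, Xaf1 and P2ry14, in 6.55% of the 11151 expressed genes and in 8.97% of all 27025 genes of the table. Both strands were searched. Among the 5 lower genes with a match, Sh2d1b1 reached the expression limit with neither DMSO nor Senexin B. Raising its low values to that limit left no difference. The others are chromosomal neighbours, Sele and Selp with 1 gene between them and Mmp13 and Mmp10 with 4. The share of 17.2% therefore does not stand for 5 separate lower genes. In Selp and Cp the only match read TGATTCA, and P2ry14 had TGAATCA and TGACTCA. The other genes named here had TGACTCA or TGAGTCA. The shares count any base at N, and shares with C or G alone there were not computed. A match describes letters and does not show that a factor binds. The 160 bases before the start of 4 of these genes follow, 5′ to 3′ on the plus strand of GRCm38.p6 from RefSeq, with the AP-1 motif in capitals. They lie at chr9:7502182-7502341 for Mmp10, chr9:7272354-7272513 for Mmp13, chr1:164048074-164048233 for Sele and chr1:164115104-164115263 for Selp. They are shown so that its distance from the start can be compared, which was 63 bases for Mmp10, 35 for Mmp13, 73 for Sele and 139 for Selp, counted from the first base of the motif.
Mmp10: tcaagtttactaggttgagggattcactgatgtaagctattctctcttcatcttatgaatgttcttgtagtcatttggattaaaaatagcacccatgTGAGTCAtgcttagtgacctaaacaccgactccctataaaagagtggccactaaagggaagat
Mmp13: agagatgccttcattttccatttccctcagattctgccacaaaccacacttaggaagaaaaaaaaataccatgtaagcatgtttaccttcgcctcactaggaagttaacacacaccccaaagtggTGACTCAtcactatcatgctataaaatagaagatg
Sele: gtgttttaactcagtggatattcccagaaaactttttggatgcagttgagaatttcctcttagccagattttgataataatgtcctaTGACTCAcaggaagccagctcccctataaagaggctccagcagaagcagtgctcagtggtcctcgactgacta
Selp: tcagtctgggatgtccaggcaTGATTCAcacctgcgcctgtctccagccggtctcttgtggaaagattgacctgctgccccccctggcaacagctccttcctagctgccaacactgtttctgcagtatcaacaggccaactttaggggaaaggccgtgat

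The selectins E and P (Sele and Selp) are receptors by which endothelium catches leukocytes. Sele read 10.18 with DMSO, 7.96 with Senexin B and 10.27 in pLKO.1, and Selp read 10.01, 8.52 and 10.34. Both control arrays were thus high and the Senexin B array low, while of the endothelial markers Tek, Pecam1 and Vwf read less than the limit with DMSO and Cdh5 (6.15) and Tie1 (6.39) just above it.

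**Figure D4:**
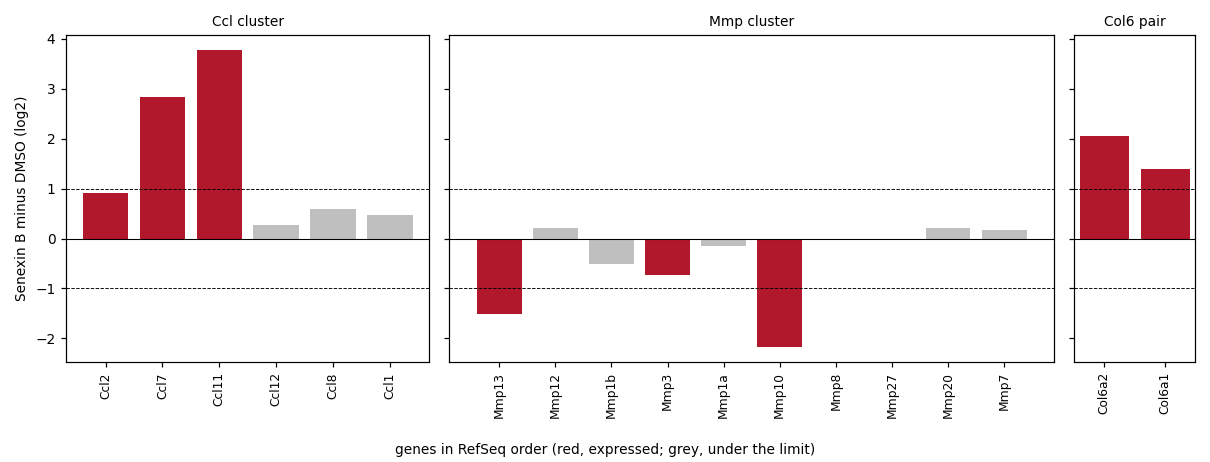
Difference for Senexin B minus DMSO (log2, vertical axis) of genes in RefSeq order in 3 neighbourhoods chosen after their values were seen; red bars are expressed genes, grey bars genes under the expression limit on all arrays and dashed lines mark 2-fold. Ccl2, Ccl7 and Ccl11 lie above 0 side by side (0.92, 2.84 and 3.78), and the 3 expressed genes of the metalloproteinase cluster lie below 0 (Mmp13 -1.52, Mmp3 -0.74, Mmp10 -2.17).

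Transcription factors at least 2-fold higher came from several families. Pparg, the nuclear receptor of fat cells and of differentiated colon epithelium, read 5.07 with DMSO, 6.87 with Senexin B and 5.23 in pLKO.1. The fatty acid-binding protein Fabp4, a known target of Pparg, read 5.21, 7.24 and 5.34. Both lay under the expression limit without the inhibitor, and with that value raised to the limit Pparg was 0.90 higher and Fabp4 1.26 higher. Sox9, a factor of crypt progenitors and cartilage, read 7.31, 8.91 and 7.99, so that it was 0.93 higher against pLKO.1. Sox5 (0.87) and Sox4 (0.85) were above DMSO as well. Foxc1, a factor of mesenchyme, read 7.87, 9.13 and 7.82. Ehf, an epithelial ETS factor, read 5.72 with DMSO, under the limit, 7.36 with Senexin B and 5.97 in pLKO.1. Of 30 expressed nuclear receptors Pparg alone was 2-fold apart and the median was 0.01. Of the 17 expressed beta-catenin targets 9 were above 0, with Axin2, the common readout of that pathway, at 0.55, Apcdd1 at -0.94 and a median of 0.05.

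Metabolic enzymes were apart in both directions. Akr1c18, a steroid dehydrogenase that inactivates progesterone, read 9.25 with DMSO, 8.80 in pLKO.1 and 5.59 with Senexin B, under the expression limit, and was the gene farthest below DMSO. The difference was -3.66 as deposited and -3.27 with that value raised to the limit. The other 6 expressed aldo-keto reductases were at -0.44 or above. Aldh3a1, a dehydrogenase that clears reactive aldehydes, read 9.06, 12.03 with Senexin B and 8.88 in pLKO.1, and the other 17 expressed aldehyde dehydrogenases were at 0.48 or below. Dhrs3, which reduces retinal to retinol, read 9.36 with DMSO, 11.22 with Senexin B and 9.45 in pLKO.1, and the retinoic acid-degrading Cyp26b1 was 0.88 higher. Ces1a, a carboxylesterase, read 6.38, 7.95 and 5.97. Aspa, which splits N-acetylaspartate, read 7.91 with DMSO, 5.82 with Senexin B, under the limit, and 7.47 in pLKO.1.

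Ion and water handling was apart in single genes. Scnn1g, the gamma subunit of the epithelial sodium channel that absorbs sodium in the distal colon, read 7.36 with DMSO, 10.32 with Senexin B and 7.45 in pLKO.1. Atp1b1, the beta subunit of the sodium pump, read 8.46, 6.60 and 7.85, and the sodium-proton exchanger Slc9a2 read 7.75, 6.65 and 7.77. Clic5 read 6.58, 8.38 and 6.25. The water channels Aqp8, of the colon surface, and Aqp1 were 1.38 and 1.13 higher, and the Aqp8 value on DMSO (5.77) lay under the limit. Among 228 expressed solute carriers the median was 0.01, and Slc9a2 was the only one 2-fold apart. Of 59 expressed potassium channels 43 were above 0, none of them 2-fold apart, and the median was 0.12. Their median level was 6.38 with DMSO, and the low group of all expressed genes had a median difference of 0.07. With the trend of the difference on level removed, the median of the potassium channels was 0.08. Iron genes also went both ways: Scara5, Cp and Lcn2 were more than 2-fold higher, while Hmox1, which breaks down haem, read 11.25 with DMSO, 10.17 with Senexin B and 10.80 in pLKO.1.

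Lysosomal genes were above 0 in 19 of 22 expressed members, and their median was 0.24, against 0.05 between the controls and 0.12 against pLKO.1. Cathepsin K (Ctsk), a collagen-degrading protease, read 6.76 with DMSO, 7.98 with Senexin B and 6.63 in pLKO.1, and the cholesterol carrier Npc2 was 0.66 higher. Gpnmb, a membrane glycoprotein of lysosome-rich cells, read 6.77, 8.81 and 8.38. Its control value in pLKO.1 was therefore near the Senexin B value, and the difference against pLKO.1 was 0.43. Cholesterol synthesis genes were above 0 in 15 of 19, with a median of 0.21, none of them 2-fold apart, and Nsdhl the highest at 0.61. Between the controls 14 of the 19 were above 0 with a median of 0.09, and against pLKO.1 17 were, with a median of 0.16.

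The difference in the interferon genes depended on the reference array. Of 30 expressed interferon-stimulated antiviral genes 27 were above 0 with Senexin B minus DMSO, 6 at least 2-fold, with a median of 0.44. Between the controls the median of the same genes was 0.52, and for Senexin B minus pLKO.1 it was -0.03. Usp18, which shuts down the interferon receptor, read 7.27 with DMSO, 8.87 with Senexin B and 8.48 in pLKO.1. Oas2, which senses double-stranded RNA, read 7.16, 8.71 and 8.44, and Oasl2 read 8.04, 9.44 and 9.40. Xaf1, Rtp4 and Ifit1 were 1.05, 1.07 and 1.05 above DMSO, and 0.03, 0.25 and 0.48 above pLKO.1. Irf7, the factor that amplifies the interferon response, read 7.63, 8.84 and 8.96, so it was above DMSO and slightly below pLKO.1. Phf11d, chosen after its values were seen, read 5.59, 6.79 and 6.83, with the same pattern. The shCDK8 array was low as well: the median level of the 30 genes was 7.72 with DMSO, 7.73 in shCDK8, 8.29 with Senexin B and 8.32 in pLKO.1. In shCDK8 minus pLKO.1 their median was -0.36, with 26 of 30 below 0. The cultures differ in solvent, inhibitor, vector and hairpin, and the part of each in these levels was not tested.

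The interferon-induced GTPases, which attack vacuoles that hold pathogens, were all 8 above 0 against DMSO, and their median of 0.55 stood against 0.39 between the controls and 0.13 when pLKO.1 was the reference. Gbp7 read 6.93 with DMSO, 8.40 with Senexin B and 8.23 in pLKO.1. Of 24 expressed MHC class I genes and their loading machinery 20 were above 0, and their median was 0.23, against 0.19 between the controls, and the immunoproteasome subunit Psmb9 was the highest at 0.96. Slfn2, a Schlafen gene that interferon can raise, stood apart from this pattern. It read 5.73 with DMSO, under the limit, 8.05 with Senexin B and 6.27 in pLKO.1, and was 1.78 higher against pLKO.1.

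The interferon-stimulated response element, searched on both strands as 2 GAAA repeats 2 bases apart, occurred in the promoter window of 10 of the 22 expressed antiviral genes with a promoter and of all 6 such GTPase genes, beside 3.41% of expressed genes and 3.99% of all genes of the table. Among the genes at least 2-fold higher with Senexin B it occurred in 4 of 65 (6.15%), namely Ifit1, Gbp7, Dhrs3 and Saa3. Between the controls Ifit1 differed by 0.57 and Gbp7 by 1.30, while Oasl2 (1.36) and Xaf1 (1.02) had no match in their windows. In the next lines the 160 bases before the start of Ifit1 and Gbp7 are shown, to set their element beside the AP-1 matches above. They lie on the plus strand of GRCm38.p6 from RefSeq at chr19:34640729-34640888 and chr3:142530176-142530335. Capitals mark the element, which reads as 2 TTTC repeats on this strand. It begins 104 and 85 bases before the start of Ifit1, which holds it 2 times, and 53 bases before that of Gbp7.
Ifit1: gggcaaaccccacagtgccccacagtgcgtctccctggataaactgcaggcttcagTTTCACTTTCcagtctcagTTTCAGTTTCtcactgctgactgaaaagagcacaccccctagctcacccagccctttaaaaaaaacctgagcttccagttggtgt
Gbp7: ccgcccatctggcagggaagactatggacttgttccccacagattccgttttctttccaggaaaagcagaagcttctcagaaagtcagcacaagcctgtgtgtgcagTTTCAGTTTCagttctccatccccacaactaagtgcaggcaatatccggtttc

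**Figure D5:**
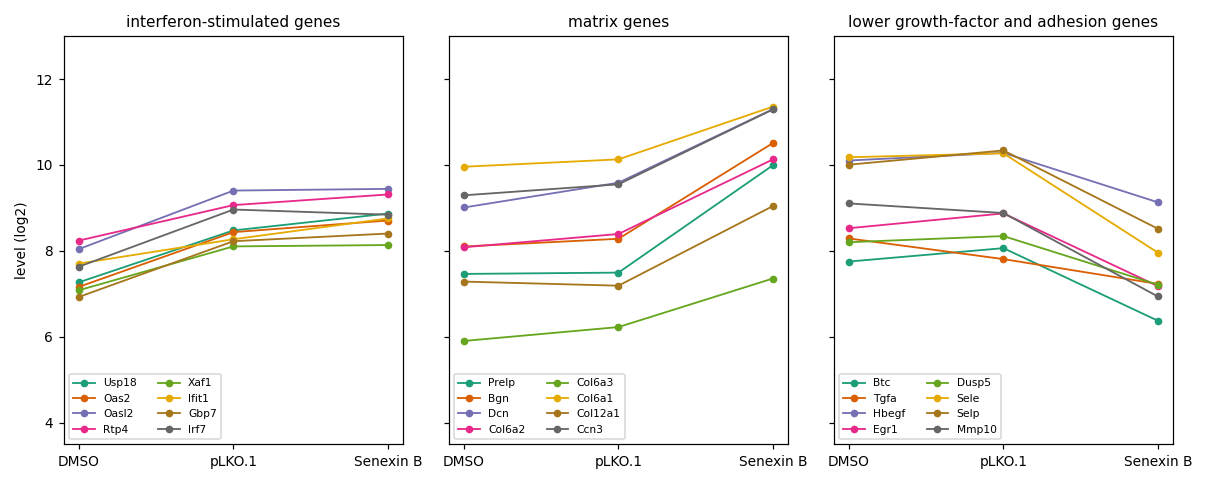
Log2 level (vertical axis) of 8 genes in each of 3 panels on the DMSO, pLKO.1 and Senexin B arrays; each line joins the values of 1 gene. The interferon-stimulated genes lie lowest on the DMSO array of these 3 and close together on the other arrays (Oasl2 8.04, 9.40 and 9.44), whereas the matrix genes lie highest on the Senexin B array alone (Prelp 7.46, 7.49 and 9.99) and the genes of the right panel lie lowest there (Sele 10.18, 10.27 and 7.96).

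Genes of growth lay slightly lower, with none 2-fold apart in the lists below. All 28 ribosome biogenesis genes were below 0, and their median was -0.22, against -0.05 between the controls. The median stayed between -0.24 and -0.14 under all alternative settings. Ddx21, a nucleolar helicase, was the lowest at -0.44. Of 34 G1/S and replication genes 7 were above 0 and the median was -0.18 beside 0.00 between the controls. E2f3, a factor that drives entry into S phase, was at -0.65 and Tyms, which makes thymidylate, at -0.43. Of 31 G2/M genes 5 were above 0 with a median of -0.14, which was -0.12 between the controls and 0.04 against pLKO.1, so its sign turned with the reference. The 11 reference genes, a list of common housekeeping transcripts, had a median of -0.05, and the group of genes highest in level, a median of -0.08. The 8 expressed CDK inhibitors had a median of -0.02.

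Some higher genes are known from leukocytes, and their values are given beside the markers named above. Ly6c2, a surface protein of inflammatory monocytes, read 7.15 with DMSO, 8.62 with Senexin B and 7.34 in pLKO.1, and the lipopolysaccharide coreceptor Cd14 read 8.76, 9.55 and 8.82. Of 15 measured macrophage and myeloid genes 5 were expressed, all above 0, with a median of 0.27, and with no limit the median was 0.14. The defining genes Ptprc, Adgre1, Csf1r, Itgam and Tyrobp lay under the limit on every array. With Senexin B minus DMSO, Tyrobp was at 0.32 and the others were below 0 (Ptprc -0.39, Adgre1 -0.10, Itgam -0.09 and Csf1r -0.06). Of the other lists, 41 expressed TRIM genes, 30 keratins and 36 proteasome genes had none at least 2-fold apart, and nor did 287 zinc finger genes of the Zfp series, whose median was -0.03.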

How the data were processed

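RNA of 4 CT26 cultures was labelled with biotin and read on 4 arrays, per the labels. Each array's deposited column holds log2 levels, 1 per probe set. RMA and Affymetrix Expression Console were used, per the submitters' processing notes. Not given in the sources used here: versions, settings, and whether the arrays were normalised together. RMA equalises array distributions, so a shift common to all genes is removed, and it compresses differences near background. The median of each array lay between 5.99 and 6.04. The number of arrays, 1 a group, limits the precision.

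Of 41345 probe sets 23521 had 1 gene symbol in the platform annotation, 1814 had several and 16010 had none. Those with 1 stood for 22180 genes, of which 22139 were found in RefSeq's gene table of GRCm38.p6. Where a gene had several, that with the highest mean over all 4 arrays stood for it. Differences are Senexin B minus DMSO on the log2 scale, and a gene at 2-fold or more is counted. A gene list is described by its expressed members, its counts and its median. Promoter motifs were searched in RefSeq windows of 300 bases, without those on chromosome 18.

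The members and lists were chosen with earlier results of these data known. The genes named are those of the kinase module, the expressed metalloproteinases, CC chemokines and small leucine-rich proteoglycans, the 30 highest and 20 lowest expressed genes without unnamed loci, small RNAs and receptor or immunoglobulin segments, all 2-fold members and up to 4 more genes of each list, and the cell type markers. Others were chosen after their values were seen. Alternatives were another limit, scaling, probe set rule, fold or reference array. The computation was tested on simulated data with Python 3.11.15, numpy 2.4.6, pandas 2.3.3 and statsmodels 0.14.6.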

Additional observations from a re-analysis of the deposited data

Results flagged for a closer look

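Probe sets without a single gene symbol entered no gene comparison. Of the 17824 of them, 8283 reached the expression limit, and 179 were at least 2-fold lower with Senexin B than with DMSO, beside 58 that were at least 2-fold lower in pLKO.1 than in DMSO. That excess over the difference between the control arrays is why they are listed here. In the other direction 120 were at least 2-fold higher with Senexin B and 213 in pLKO.1. No single gene can be named for any of them, and these comparisons share the DMSO array.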

How the results depend on the processing

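The counts of 98 higher and 36 lower genes moved by more than 1.5 times with the fold alone: at 1.5-fold they were 336 and 235, and at 3-fold 26 and 7. Under the other 8 alternatives they lay between 84 and 114 and between 31 and 43. With pLKO.1 as reference they were 101 and 43, of which 69 and 21 were genes of the original counts. That reference moved 46 of 66 genes followed here, a part of those named, and 46 of 130 list medians by at least 0.1. Raising low values to the limit moved 11 of these 66 genes, Pparg to 0.90 and Sh2d1b1, under the limit on both arrays, to 0.00. Averaging probe sets moved Prelp, Bgn and Serpinb9b (1.12) and, outside the 66, Col6a1 (1.14) and Dio2 (1.06). It ended the 2-fold difference of Ighg3, which averaged 0.65. The same held for Rgs2 (1.62), which averaged 0.82 with a second probe set at 0.01 and no longer reached the limit. The limit also set the rank of list medians: that of the acute-phase proteins was 0.20 with no limit, under that of the interferon-stimulated genes (0.44). The limit at the 60th percentile moved 39 list medians, that of the metalloproteinases from 0.04 to -0.37. Repeated quantile normalisation and removal of a lowess trend moved no list median by 0.1. No paired analysis was possible because each group has 1 array. Signal over background of each probe set was not used here.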

Other observations

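Genes at least 2-fold apart that stand in none of the groups described above, chosen after their values were seen, include the following. Prl, the hormone prolactin, read 9.92 with DMSO, 11.19 with Senexin B and 10.08 in pLKO.1. Idh1, the cytosolic isocitrate dehydrogenase, read 9.10, 10.47 and 8.96, and Anpep, an aminopeptidase of the gut surface, read 7.58, 8.96 and 7.55. Sod3, the secreted superoxide dismutase, read 6.98, 8.27 and 7.33. Bdkrb2, the bradykinin receptor, read 7.64, 8.93 and 7.53. On the lower side, Ercc1, a subunit of a DNA repair nuclease, read 10.44 with DMSO, 9.41 with Senexin B and 10.35 in pLKO.1, and Fat1, a giant cadherin, read 10.21, 9.02 and 10.25. Pik3cb, a catalytic subunit of PI3 kinase, read 8.92, 7.74 and 8.62, and Dkk2, a secreted Wnt antagonist, read 9.31, 8.22 and 8.94. In Prl, Idh1, Anpep, Bdkrb2, Ercc1 and Fat1 the control arrays lay close together and the Senexin B array apart. For Sod3, Pik3cb and Dkk2 the pLKO.1 value lay between the others, and the difference against it was 0.94, -0.87 and -0.73.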
